A study of Mus musculus with 12 samples.

Results

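The clonotypes described here were the TCRα clonotypes that were public in wt mice and in neither cytokine mutant. A clonotype is a combination of a TRAV segment, a CDR3 amino acid sequence and a TRAJ segment, and the set was chosen by the UMI counts themselves: a clonotype was kept if it had at least 1 UMI in all 4 wt libraries, was missing from at least 1 of the 4 Il2° libraries and was missing from at least 1 of the 4 Il15° libraries. This rule was met by 289 of the 22578 clonotypes of the series, and by 44.6% of the 648 clonotypes public in wt (95% Wilson interval 40.8% to 48.4%). The interval takes the clonotypes as independent and does not cover the depth or choice of libraries. With all libraries brought to the smallest UMI total, the share was 37.2%. The other 359 wt public clonotypes, called the rest of the wt public repertoire below, were also public in at least 1 mutant.

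The libraries came from newly developed Treg of the thymus, sorted as CD4+CD8-Thy1.1+GFP+ cells, 100000 from each of 12 individual mice aged 3 weeks, of which 4 were wt, 4 Il2° (no IL-2) and 4 Il15° (no IL-15). Wt controls and mutants alike were B6 mice that carried Rag2-Gfp (a reporter of recent Rag2 expression), Foxp3-Thy1a (Thy1.1 on cells that express Foxp3), 1 Tcra null allele (Tcra+/null) and the Kaa Tcrb transgene, so that each T cell had the same transgenic TCRβ chain available and 1 Tcra allele to rearrange. The TCRα repertoires are therefore those seen beside 1 transgenic TCRβ chain, not those of unmodified mice. A count is a number of UMIs, each of which tags 1 mRNA molecule, and a cell can give several. Libraries held between 7625 and 25980 UMIs, and all intervals and detection limits below cover counting error only.

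A TCRα chain is built by joining a TRAV to a TRAJ segment. Enzymes trim both ends and can add N bases that neither segment encodes, and the CDR3, the loop that faces the peptide, spans the junction. Different nucleotide sequences can encode the same CDR3, and clonotypes that are easily made in this way tend to recur in many individuals, which makes them public. IL-2 and IL-15 signal through receptors that share subunits, and both cytokines support the development of Treg.

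The cell type cannot be checked from TCRα sequences alone. The invariant chain of NKT cells (TRAV11 or TRAV11D with TRAJ18) took 90 of 199248 UMIs and the chain of MAIT cells (TRAV1 with TRAJ33) took 119, and 0 of the 289 clonotypes had either. Il15° replicates 2 and 3 stood apart by few clonotypes (2104 and 1804 expected at 7625 UMIs, against 2403 to 3464 in the other 10 libraries). The left-out results and the comparison of the mutants are also given without them below, while the counts of absent and separated clonotypes are not.

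The most frequent CDR3 nucleotide sequence in wt of the 8 clonotypes with the highest mean wt shares, H1 to H8, shows what the set is made of. The bases in capitals are the N bases, those between the last base assigned to TRAV and the first assigned to TRAJ, and every sequence runs 5′ to 3′ from the conserved cysteine codon to the last codon of the CDR3.
H1, TRAV4D-4 TRAJ15: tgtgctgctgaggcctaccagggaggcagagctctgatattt
H2, TRAV14-1 TRAJ27: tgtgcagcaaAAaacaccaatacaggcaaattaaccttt
H3, TRAV4N-3 TRAJ15: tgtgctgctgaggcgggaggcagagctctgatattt
H4, TRAV4D-3 TRAJ31: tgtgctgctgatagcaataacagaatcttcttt
H5, TRAV4D-3 TRAJ39: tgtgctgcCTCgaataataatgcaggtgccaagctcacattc
H6, TRAV4D-3 TRAJ18: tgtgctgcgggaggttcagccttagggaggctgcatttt
H7, TRAV7-3 TRAJ12: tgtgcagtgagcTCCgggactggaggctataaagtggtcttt
H8, TRAV12D-2 TRAJ32: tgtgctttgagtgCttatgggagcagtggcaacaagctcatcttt

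Of these 8 sequences, 4 had no N base and the others had 1 to 3. The next 6 sequences, M1 to M6, belong to the clonotypes with the highest wt shares among those with no UMI in any of the 8 mutant libraries, the far end of the set.
M1, TRAV7-2 TRAJ23: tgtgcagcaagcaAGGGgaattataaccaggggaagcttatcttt
M2, TRAV13N-2 TRAJ27: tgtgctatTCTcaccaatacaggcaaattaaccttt
M3, TRAV7-3 TRAJ37: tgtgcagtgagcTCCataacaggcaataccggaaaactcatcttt
M4, TRAV4-3 TRAJ22: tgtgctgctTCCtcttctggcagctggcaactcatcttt
M5, TRAV12D-2 TRAJ56: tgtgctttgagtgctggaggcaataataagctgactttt
M6, TRAV4D-3 TRAJ39: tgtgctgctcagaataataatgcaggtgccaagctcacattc

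The clonotypes public only in wt were of low to moderate abundance. Together they took 5.90%, 6.34%, 9.34% and 6.95% of wt UMIs, mouse by mouse (mean ± SD 7.13 ± 1.53%, n = 4), while the rest of the wt public repertoire took 36.7 ± 1.98%. The median wt share of a clonotype was 0.0212% in the set and 0.0539% in the rest, and the highest was 0.141%. In 147 clonotypes (50.9%) at least 1 wt library held only 1 UMI, against 54 (18.7%) of the rest, 7 had 1 UMI in all 4 wt libraries, and 21 (7.27%) had at least 5 UMIs in each. Presence in all 4 wt mice was thus, for many of them, close to the detection limit. Another 627 clonotypes, also missing from at least 1 library of each mutant, fell just short of it, with UMIs in 3 of the 4 wt libraries.

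In the mutants the set took 4.82%, 3.76%, 3.26% and 3.51% of the UMIs of the Il2° libraries and 4.31%, 3.03%, 2.94% and 4.26% of those of the Il15° libraries. Every mutant library lay below every wt library. The rule chose the clonotypes by their presence in these same libraries, so this separation is a description and was not tested. Fewer cells of a clonotype and fewer Tcra mRNA molecules per cell cannot be told apart in these counts. The rest was kept for its presence in all 4 libraries of at least 1 mutant, so its share is a description too. It was 34.9 ± 2.27% in Il2° and 35.4 ± 1.51% in Il15° libraries, beside 36.7 ± 1.98% in wt (n = 4 each).

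Detection in the mutants was graded and partial. The rule required detection in all 4 wt libraries and in at most 3 of 4 libraries of each mutant, so this is a description. In wt libraries that did not choose the set (below), only 63.9 ± 10.1% of the rebuilt sets was found. The values there were 45.9 ± 7.33% in Il2° and 34.5 ± 13.5% in Il15° libraries. Of the 289 clonotypes, 163, 142, 148 and 100 were found in the Il2° libraries and 151, 78, 65 and 160 in the Il15° libraries, so that a clonotype of the set was found in a median of 4 of the 8 mutant libraries. Il2° replicate 4, with 100, was the shallowest library, and Il15° replicates 2 and 3, with 78 and 65, were the ones with few clonotypes.

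**Figure D1:**
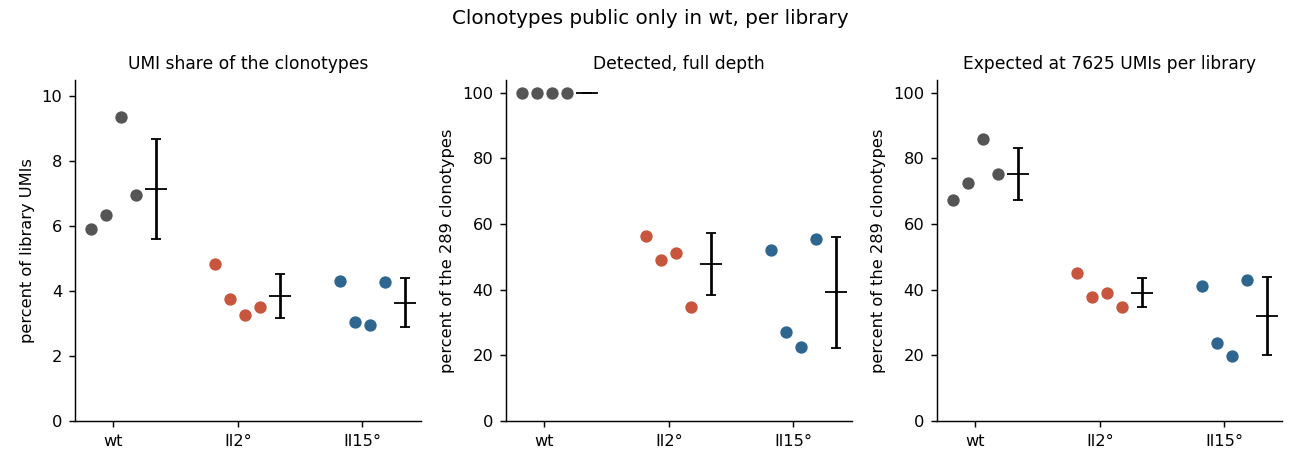
Left, the UMI share of the 289 clonotypes in each library (percent of library UMIs); middle, the percent of them detected at full depth; right, the percent expected if every library held 7625 UMIs. Points are libraries, replicate 1 to 4 from left to right, and bars are mean ± SD of 4. All mutant libraries lie below all wt libraries in each panel, which the rule itself favours, and Il15° replicates 2 and 3 are the lowest in the middle and right panels.

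The numbers moved with depth. With all libraries brought to the smallest total of 7625 UMIs, computed exactly and without random draws, the wt libraries would hold 67.4% to 86.0% of the set, the Il2° libraries 39.1 ± 4.35% and the Il15° libraries 31.9 ± 11.8%. At that depth 371 clonotypes would be public in wt, of which 138 (37.2%) would be public only there, in place of 289 of 648. The mirror sets were smaller at both depths. Of 441 clonotypes public in Il2°, 116 (26.3%) were public in that genotype alone, and of 416 public in Il15°, 132 (31.7%) were. At 7625 UMIs these shares were 32.2% (105 of 325) and 29.5% (81.5 of 276).

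The clonotypes spread over all combinations of mutant libraries. The largest class, 44 clonotypes (15.2%), was missing from only 1 library of each mutant, and 97 (33.6%) were found in 5 or 6 of the 8 mutant libraries. Absence from all 4 Il2° libraries was seen in 37 clonotypes (12.8%), against 5.86% of all wt public clonotypes, and absence from all 4 Il15° libraries in 75, against 12.5%. These backgrounds contain the set itself, and the rule used the same contrast. Of the clonotypes absent from 1 mutant, 20 lacked UMIs in every Il2° library but were found in Il15° mice, 58 lacked UMIs in every Il15° library but were found in Il2° mice, and 17 lacked them in both. More Il2° than Il15° libraries held the clonotype in 123 cases, fewer in 69 and as many in 97. The rest of the wt public repertoire leaned the same way, so this is not particular to the set. There, 111 clonotypes were public in Il2° but not in Il15° mice and 70 in Il15° but not in Il2° mice.

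**Figure D2:**
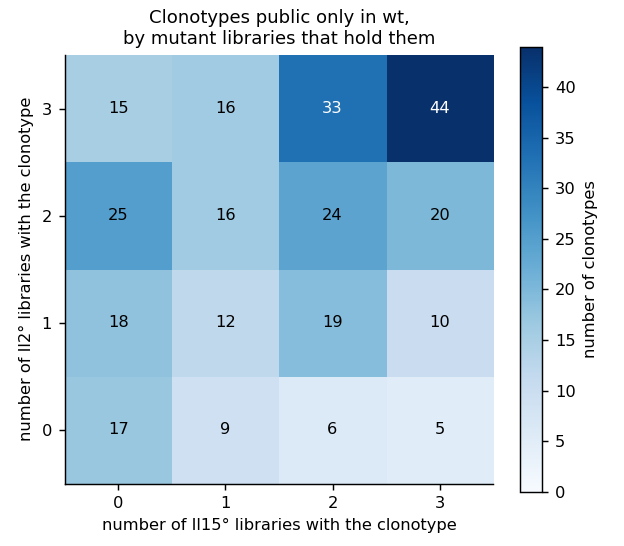
Number of clonotypes of the set by the number of Il15° libraries (horizontal axis) and Il2° libraries (vertical axis) that held at least 1 UMI of them. The corner of clonotypes missing from 1 library of each mutant holds 44, and the corner absent from all 8 mutant libraries holds 17.

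Few of the clonotypes separated the genotypes in every mouse. All 4 wt shares were above all 4 Il2° shares for 59 clonotypes (20.4%; 13.3% of all wt public clonotypes) and above all 4 Il15° shares for 100 (34.6%; 19.4% of all wt public clonotypes). All 4 wt shares were above all 8 mutant shares for 26, while the share over all wt public clonotypes was 4.78%. In the opposite direction, the mean share was higher in Il2° than in wt mice for 47 clonotypes and higher in Il15° than in wt mice for 46. The single highest share among the 12 libraries was found in a wt library for 142 clonotypes (49.1%), in an Il2° library for 82 and in an Il15° library for 65. Counts by mean share and by highest share have no value over all wt public clonotypes beside them. Since the rule chose the set by presence in wt and absence in mutants, in these same libraries, all these counts are a description. A single UMI made up 32.0% of the 553 detections in Il2° libraries and 21.8% of the 454 in Il15° libraries, beside 20.3% of the 1156 in wt libraries. At least 10 UMIs were counted in 40, 72 and 134 of these detections.

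The clonotype of the highest wt share, H1 (TRAV4D-4 TRAJ15), had 27, 21, 38 and 23 UMIs in the 4 wt mice, 0, 6, 14 and 3 in the Il2° mice and 11, 0, 0 and 18 in the Il15° mice. It was thus absent from 1 Il2° and 2 Il15° mice, and wt replicate 3 had the highest share, 0.238%. Its wt mean was 0.141 ± 0.0675% of UMIs, against 0.0406 ± 0.0377% in Il2° and 0.0395 ± 0.0479% in Il15° mice (n = 4 each).

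H4 (TRAV4D-3 TRAJ31) had 3, 19, 12 and 26 UMIs in the wt libraries, 10, 0, 6 and 4 in Il2° and 2, 0, 0 and 4 in Il15°. Its mean share of 0.0790 ± 0.0566% in wt mice compares with 0.0417 ± 0.0316% in Il2° mice and 0.00815 ± 0.0103% in Il15° mice. Wt and Il2° values overlapped, and so did wt and Il15° values, since wt replicate 1 had a share of 0.0115%.

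H5 (TRAV4D-3 TRAJ39) had 11, 11, 23 and 10 UMIs in wt, 1, 0, 1 and 3 in Il2° and 0, 0, 0 and 6 in Il15° mice. Here all wt shares, 0.0423% to 0.144%, exceeded all mutant shares, of which the highest was 0.0393%. H8 (TRAV12D-2 TRAJ32) had 20, 9, 9 and 19 UMIs in wt, 7, 4, 0 and 3 in Il2° and 2, 0, 5 and 3 in Il15° mice. The lowest wt share of that clonotype, 0.0376%, lay within the range of both mutants.

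Other clonotypes of the set did not go in 1 direction. H3 (TRAV4N-3 TRAJ15) had 6, 27, 3 and 31 UMIs in wt, 33, 5, 5 and 0 in Il2° and 22, 0, 1 and 22 in Il15° mice, and its highest share, 0.249%, was that of Il2° replicate 1. H2 (TRAV14-1 TRAJ27) had 42, 11, 20 and 25 UMIs in wt, 0, 32, 3 and 6 in Il2° and 21, 0, 10 and 0 in Il15° mice, and its highest share, 0.172%, was also in an Il2° library. H6 (TRAV4D-3 TRAJ18) had 9, 12, 25 and 7 UMIs in wt, 3, 10, 4 and 0 in Il2° and 0, 28, 4 and 0 in Il15° mice. Its highest share, 0.204%, was in Il15° replicate 2. Each of these 3 was missing from 1 Il2° mouse and from 1 or 2 Il15° mice.

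These values depend on the name of the TRAV segment, since many TRAV segments of B6 mice exist as near-identical copies marked D or N. In the set 204 clonotypes (70.6%) carried such a name, against 60.4% of the rest. With the D and N copies joined, 313 clonotypes met the rule, 256 of the 289 still met it, and 33 became public in a mutant. The latter include H2 (TRAV14-1 TRAJ27), H3 (TRAV4N-3 TRAJ15), H6 (TRAV4D-3 TRAJ18) and H7 (TRAV7-3 TRAJ12). After joining, H2 (TRAV14-1 TRAJ27) had 47, 26, 25 and 25 UMIs in wt, 20, 32, 10 and 8 in Il2° and 29, 19, 16 and 13 in Il15° mice and was missing from none. By contrast H1 (TRAV4D-4 TRAJ15) and H8 (TRAV12D-2 TRAJ32) kept the same UMIs in every library.

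The members just inside the rule were found in 3 of 4 libraries of each mutant. The 3 of them with the highest wt shares were H3 (TRAV4N-3 TRAJ15), H8 (TRAV12D-2 TRAJ32) (both above) and H7 (TRAV7-3 TRAJ12), which had 25, 15, 3 and 18 UMIs in wt, 6, 0, 1 and 3 in Il2° and 12, 0, 5 and 2 in Il15° mice. Just outside lay 53 wt public clonotypes missing from only 1 Il15° library and 39 missing from only 1 Il2° library. Of the former, O1 (TRAV4N-3 TRAJ12) had 62, 18, 38 and 50 UMIs in wt, 7, 64, 46 and 20 in Il2° and 31, 0, 53 and 42 in Il15° mice. Of the latter, O2 (TRAV4D-3 TRAJ31) had 46, 50, 52 and 29 UMIs in wt, 1, 0, 14 and 4 in Il2° and 32, 24, 8 and 52 in Il15° mice. Both had higher wt shares than any clonotype of the set. With the D and N copies joined, O1 had 28 UMIs in Il15° replicate 2 and was missing from no library. O2 was still missing from Il2° replicate 2. Another clonotype missing from only 1 Il2° library, with TRAV4N-3 and TRAJ22, had a higher mean wt share than O2 (0.247% against 0.220%). After joining it was missing from no library. The sequences of O1 and O2 stand beside those of the set for comparison, O2 with H4, which has the same TRAV and TRAJ segments.
O1, TRAV4N-3 TRAJ12: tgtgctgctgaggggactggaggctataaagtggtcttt
O2, TRAV4D-3 TRAJ31: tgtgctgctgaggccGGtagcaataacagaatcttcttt

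The 17 clonotypes without a UMI in any mutant library were rare in wt. M1 (TRAV7-2 TRAJ23) had 2, 4, 9 and 5 UMIs in the wt libraries, a mean share of 0.0274 ± 0.0211%. M2 (TRAV13N-2 TRAJ27) had 2, 11, 6 and 3. M3 (TRAV7-3 TRAJ37) had 1, 12, 4 and 4. These are the highest of the 17, whose median wt share was 0.0148%. A count of 0 still allows a share of up to 0.0161% to 0.0393% in any 1 mutant library (3 UMIs of its total).

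M4 (TRAV4-3 TRAJ22) had 1, 7, 4 and 6 UMIs in wt. M5 (TRAV12D-2 TRAJ56) had 3, 1, 7 and 5, all from 1 nucleotide sequence without N bases. M6 (TRAV4D-3 TRAJ39) had 2, 8, 4 and 1. All 6 remained absent from the 8 mutant libraries with the D and N copies joined.

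Whether the set marks wt mice was asked in libraries that did not choose it. The rule was applied again without 1 library of each genotype, in all 64 combinations, and each library was read only where it had been left out, which gave sets of 281 to 474 clonotypes (median 402.5). The rebuilt sets share libraries, so the values of the left-out libraries are not independent of each other. The p-values of all tests in left-out libraries, here and below, do not account for this. In the left-out libraries the sets took 4.72%, 5.16%, 7.76% and 5.56% of UMIs in wt, 5.71%, 4.41%, 3.90% and 4.22% in Il2° and 4.89%, 3.64%, 3.44% and 4.95% in Il15° mice. The genotypes overlapped, with wt 5.80 ± 1.35%, Il2° 4.56 ± 0.795% and Il15° 4.23 ± 0.799%. The difference from wt was −1.24 points in Il2° (exact 2-sided Mann-Whitney test over libraries, n = 4 against 4, p = 0.2, adjusted p = 0.4 over 4 tests, which include the 2 comparisons of the set between the mutants) and −1.57 points in Il15° mice (exact p = 0.114, adjusted p = 0.4). The gap between wt and mutants was thus smaller here than in the libraries that chose the set, and without wt replicate 4 the Il2° difference was 0.0784 points in the other direction.

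Counted as clonotypes found, the left-out libraries differed more. At full depth the sets were found at 56.9%, 64.6%, 56.2% and 78.0% in wt, at 54.6%, 45.6%, 46.8% and 36.7% in Il2° and at 45.1%, 25.4%, 20.6% and 46.9% in Il15° libraries. At 7625 UMIs per library the values were 37.7%, 46.3%, 48.2% and 57.8% in wt, 43.0%, 34.3%, 35.3% and 36.7% in Il2° and 34.7%, 22.3%, 18.1% and 36.0% in Il15° libraries. At this depth all wt libraries lay above all Il15° libraries (47.5 ± 8.27% against 27.8 ± 8.93%, exact 2-sided Mann-Whitney test, p = 0.0286, the smallest that 4 against 4 allows, adjusted p = 0.0857 over 3 tests at this depth). The Il2° libraries, at 37.3 ± 3.93%, overlapped wt (exact p = 0.0571, adjusted p = 0.0857).

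**Figure D3:**
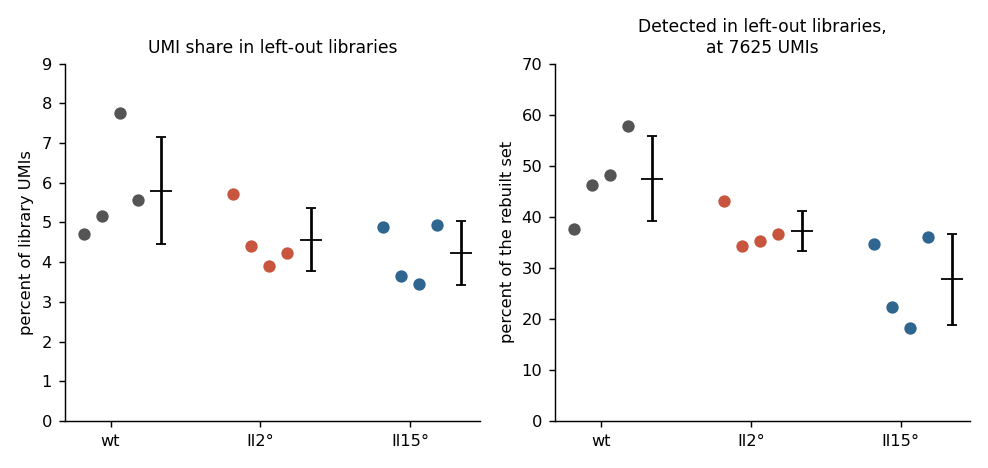
Values in libraries that were left out when the set was chosen: left, percent of library UMIs; right, percent of the rebuilt set detected with all libraries at 7625 UMIs. Points are libraries, replicate 1 to 4 from left to right, with mean ± SD of 4. On the right, the 4 wt libraries lie above the 4 Il15° libraries, of which replicates 2 and 3 are the lowest at 22.3% and 18.1%.

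The lowest Il15° values belong to the replicates with few clonotypes, and the part of those libraries in the result was examined by leaving both out. The rule then needs absence from 1 of 2 Il15° libraries, is met by 174 clonotypes, and gave 40.8% for wt, 29.9% for Il2° (exact p = 0.114) and 17.2% for Il15° left-out libraries at 7625 UMIs (exact p = 0.133, the smallest that 4 against 2 allows). In that setting the remaining Il15° library used by the rule had to lack the clonotype.

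The mutants were then compared with each other. The rule used these 8 libraries and held each clonotype to at most 3 of 4 libraries in each mutant, so the values of the set itself are a description. The set was detected at 47.8 ± 9.34% in Il2° and 39.3 ± 16.9% in Il15° libraries, and at 39.1 ± 4.35% and 31.9 ± 11.8% with all libraries at 7625 UMIs. It took 3.84 ± 0.685% and 3.63 ± 0.751% of UMIs. Il15° replicates 1 and 4 lay inside the range of detected percentages of the Il2° libraries at full depth and replicates 2 and 3 below it.

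In the left-out libraries, which did not choose the sets, the sets were detected at 45.9 ± 7.33% in Il2° and 34.5 ± 13.5% in Il15° mice (exact 2-sided Mann-Whitney test, n = 4 against 4, p = 0.343, adjusted p = 0.686 over 2 tests). They took 4.56 ± 0.795% and 4.23 ± 0.799% of UMIs (exact p = 0.686, adjusted p = 0.686), and both differences were within the spread between mice. Without Il15° replicates 2 and 3 the set detected at 42.5% in Il2° libraries was detected at 23.3% in Il15° libraries, and took 1.76% and 0.842% of UMIs. All 4 Il2° libraries then lay above both Il15° libraries on either measure, but each clonotype could be present in at most 1 of these 2 Il15° libraries by the rule, against 3 of 4 Il2° libraries, so the setting does not compare the mutants on equal terms.

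Single clonotypes were compared between Il15° and Il2° mice with edgeR. By the rule, each clonotype of the set lacks UMIs in at least 1 of these libraries per mutant. The outcomes for the set are therefore a description. The filter (5 or more UMIs in 4 or more of these 8 libraries) left 362 clonotypes, of which 22 belonged to the set. Of all tested, 1 passed an adjusted p of 0.05 (0.276%) and 34 an unadjusted p of 0.05 (9.39%), and 0 of the 22 did either, which does not show that their levels were alike. DESeq2 called 3 of the 362 (0.829%) and 0 of the 22. The fitted log2 differences of the 22, Il15° over Il2°, ran from −1.97 to 2.12. The other 267 clonotypes of the set had too few UMIs for the filter and were not tested. With at least 1 UMI in 4 or more libraries as the filter, 147 clonotypes of the set were among the 1500 tested. Of the 1500, 3 passed the adjusted p of 0.05 (0.2%) and 128 the unadjusted p of 0.05. Of the 147, 0 passed the adjusted and 9 the unadjusted p of 0.05.

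The set used the TRAV families of the wt public repertoire in other proportions. It held 50 TRAV segments of 14 families and 40 TRAJ segments in 191 TRAV-TRAJ pairs, of which 137 held 1 clonotype, so it was not built on a few recombinations. The pair with most clonotypes was TRAV4D-3 with TRAJ31 (8), followed by TRAV4D-3 with TRAJ39 (7). These segments lie in the Tcra locus on chromosome 14 (GRCm38), TRAV4D-3 at chr14:52899969-52900470, TRAJ31 at chr14:54187895-54187951 and TRAJ39 at chr14:54179962-54180024, all on the plus strand and annotated as TCR V and J genes.

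Usage was weighted by UMIs within each of the 4 wt libraries, and 5 families reached 5% in either set. TRAV4, the largest family, took 40.01%, 45.1%, 46.5% and 42.1% of the UMIs of the set in wt replicates 1 to 4, and 37.0%, 35.3%, 39.6% and 36.0% of those of the rest (43.4 ± 2.92% against 37.0 ± 1.88%). TRAV12 took 18.9%, 15.3%, 15.1% and 15.03% against 12.3%, 10.9%, 11.2% and 13.2%. Both were higher in the set in 4 of 4 mice, without overlap (exact 2-sided Mann-Whitney test, n = 4 libraries, p = 0.0286 each, adjusted p = 0.0357 over 5 families). With the D and N copies of TRAV segments joined the TRAV4 difference was 4.33 points and overlapped (exact p = 0.0571).

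TRAV7 was lower in the set, at 15.1%, 17.1%, 13.3% and 13.6% against 21.8%, 22.3%, 17.8% and 19.3% of the rest (exact p = 0.0286, adjusted p = 0.0357). TRAV10 was lower too, at 0.685 ± 0.201% against 5.43 ± 1.66% (exact p = 0.0286, adjusted p = 0.0357). TRAV6, at 7.51 ± 1.49% against 9.09 ± 1.01%, was lower in 4 of 4 mice but overlapped (exact p = 0.114, adjusted p = 0.114). Both sets were measured in the same 4 mice, so these tests cover only how UMIs are weighted from mouse to mouse, and an exact test paired by mouse cannot go below p = 0.125.

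Counts of clonotypes show how much of this rests on a few abundant clonotypes. TRAV4 held 100 of 289 clonotypes (34.6%, Wilson interval 29.4% to 40.3%) against 103 of 359 (28.7%, 24.3% to 33.6%), TRAV12 held 68 (23.5%) against 69 (19.2%), and TRAV7 held 45 (15.6%, 11.8% to 20.2%) against 77 (21.4%, 17.5% to 25.99%), with overlapping intervals in each. TRAV10 held 2 clonotypes of the set and 5 of the rest, and 4.77 of its 5.43 points in the rest came from 1 clonotype with TRAJ31. The most frequent single segment of the set was TRAV4D-3 with 55 clonotypes, then TRAV12N-3 with 45 (15.6%) and TRAV4N-3 with 27 (9.34%). The last held 16 (4.46%) of the rest, intervals 6.50% to 13.3% and 2.76% to 7.12%. This segment was singled out after its values were seen.

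**Figure D4:**
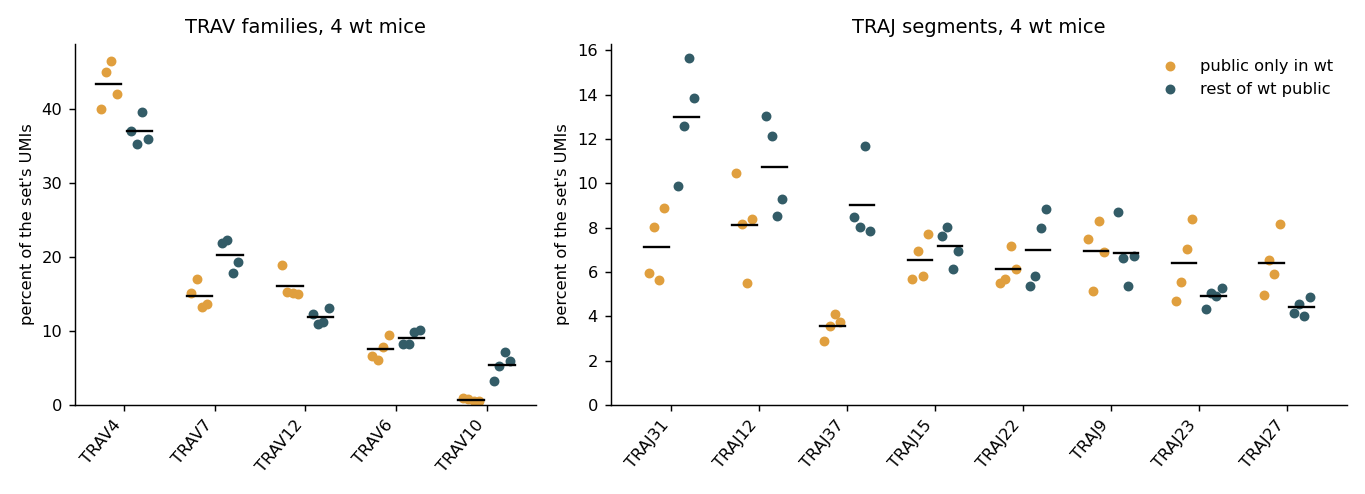
Percent of UMIs of the clonotypes public only in wt and of the rest of the wt public repertoire that carried each TRAV family (left) or TRAJ segment (right) reaching 5% in either set. Points are the 4 wt mice, replicate 1 to 4 from left to right, and lines are means. TRAV4 and TRAV12 lie higher and TRAV7 and TRAV10 lower in the clonotypes public only in wt, and TRAJ31 and TRAJ37 lie lower.

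Among the 8 TRAJ segments tested, TRAJ31 took 5.94%, 8.05%, 5.63% and 8.89% of the UMIs of the set against 9.89%, 12.6%, 15.6% and 13.9% of the rest. TRAJ37 took 2.87%, 3.56%, 4.09% and 3.74% against 8.47%, 8.04%, 11.7% and 7.87%. TRAJ27 went the other way, at 4.96%, 6.53%, 5.90% and 8.14% against 4.17%, 4.56%, 4.03% and 4.86%. The sets did not overlap for these 3 segments (exact 2-sided Mann-Whitney test, n = 4 libraries, p = 0.0286 each), but none passed the threshold after adjustment over 8 segments (adjusted p = 0.0762 each). In the rest, 4.77 of the 13.0 points of TRAJ31 came from the TRAV10 clonotype above, and 3.16 of the 9.01 points of TRAJ37 from 1 clonotype with TRAV4D-3. By clonotypes, TRAJ31 held 16 (5.54%) against 29 (8.08%), TRAJ37 held 14 (4.84%) against 22 (6.13%) and TRAJ27 held 17 (5.88%) against 18 (5.01%).

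The other 5 segments overlapped between the sets. TRAJ12 was at 8.13 ± 2.03% against 10.7 ± 2.17% (exact p = 0.114), TRAJ23 at 6.42 ± 1.63% against 4.90 ± 0.398% (exact p = 0.2), TRAJ15 at 6.54 ± 0.965% against 7.19 ± 0.841% (exact p = 0.343), TRAJ22 at 6.12 ± 0.755% against 7.01 ± 1.66% (exact p = 0.686) and TRAJ9 at 6.96 ± 1.34% against 6.85 ± 1.38% (exact p = 0.886). TRAJ numbers fall from the TRAV side of the locus to the constant region, so that a high mean number stands for TRAJ segments near the TRAV segments. The UMI-weighted mean number was 23.5, 25.3, 26.2 and 24.6 in the set and 22.6, 23.4, 25.1 and 23.6 in the rest, higher in 4 of 4 mice but overlapping (exact p = 0.2, adjusted p = 0.25 over 5 features). Within the set it was 29.4 for the 17 clonotypes found in no mutant library, 27.2 for the 70 found in 1 or 2, 26.9 for the 105 found in 3 or 4 and 23.9 for the 97 found in 5 or 6, each clonotype counted once.

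CDR3 length did not separate the set from the rest. The CDR3 of the set had 10 to 16 amino acids, with 90 clonotypes of 13 and 95 of 14, and the UMI-weighted mean was 13.14 ± 0.0570 against 13.12 ± 0.0191 amino acids (exact 2-sided Mann-Whitney test, n = 4 libraries, p = 0.886). A mark of a frame shift or stop codon was counted as 1 amino acid, and for in-frame clonotypes the difference was −0.0410. The middle of the CDR3, the residues left after 4 at each end are dropped, was less hydrophilic. Its mean Kyte-Doolittle hydropathy, a scale on which higher values are more hydrophobic, was −0.990, −1.05, −1.03 and −1.15 in the set and −1.22, −1.31, −1.34 and −1.32 in the rest (difference 0.246, higher in 4 of 4 mice, exact p = 0.0286, adjusted p = 0.0476 over 5 features). With the D and N copies joined the difference was 0.156 (exact p = 0.0571). As for TRAV usage, both sets were measured in the same 4 mice. The tests of CDR3 features and TRAJ usage thus cover only how the same clonotypes are counted or weighted from mouse to mouse. Paired by mouse, the exact sign-flip test for hydropathy gave p = 0.125, the smallest possible.

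Fewer nucleotide sequences were counted per clonotype in the set, which also had fewer UMIs (median over the 4 wt libraries 17, against 45 in the rest). A clonotype cannot have more sequences than UMIs, so the test here does not tell fewer sequences from lower abundance. Each of its clonotypes had 1.62, 1.59, 1.26 and 1.40 CDR3 nucleotide sequences per wt library in replicates 1 to 4, against 2.96, 2.78, 2.06 and 2.47 in the rest (1.47 ± 0.171 against 2.57 ± 0.395, lower in 4 of 4 mice, exact 2-sided Mann-Whitney test, n = 4 libraries, p = 0.0286, adjusted p = 0.0476 over 5 features). Over the 12 libraries the 289 clonotypes had 1025 sequences, with 15 clonotypes of a single sequence and a highest number of 10, against 23 in the rest. In 122 clonotypes (42.2%) at least 1 nucleotide sequence was shared by all 4 wt mice, against 255 (71.0%) of the rest, so the other 167 were public by their amino acids but not by any 1 nucleotide sequence.

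The number of sequences rose with the UMI count, which is lower in the set, and it was therefore also read in classes of wt UMIs. The top class has no upper limit, and the highest mean wt share was 0.141% in the set and 1.76% in the rest, so that UMI counts are not equal there. It was 2.73 ± 1.06 against 3.57 ± 1.40 at 4 to 9 UMIs (55 and 7 clonotypes, mean ± SD over clonotypes), 3.32 ± 1.57 against 4.21 ± 1.79 at 10 to 19 (111 and 38), 4.02 ± 1.84 against 4.93 ± 2.21 at 20 to 39 (100 and 121) and 4.57 ± 1.47 against 7.31 ± 3.54 at 40 or more (23 and 193). The set was thus lower in each class, within the spread over clonotypes. These sequences were counted over all 12 libraries, to which clonotypes public in a mutant contribute more. A clonotype was found in a mean of 3.48 mutant libraries in the set and 7.13 in the rest, so the classes do not remove this difference. Within the set the number grew from 2.18 for the clonotypes found in no mutant library over 2.74 (1 or 2 libraries) and 3.65 (3 or 4) to 4.26 (5 or 6), and it was 7.21 for the 178 clonotypes present in all 12 libraries. The median wt share grew along the same classes, from 0.0148% over 0.0172% and 0.0209% to 0.0282% and 0.0909%.

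The widest case was S1 (TRAV4D-3 TRAJ37), with 10 nucleotide sequences. It had 3, 14, 8 and 5 UMIs in wt, 11, 4, 2 and 0 in Il2° and 7, 1, 0 and 4 in Il15° mice, with a mean share of 0.0373 ± 0.0212%, 0.0293 ± 0.0368% and 0.0169 ± 0.0171%. Its sequences, of which the first 4 were found in wt mice, differ at the junction only and show how the same amino acids arose with 0 to 4 N bases.
Sequence 1: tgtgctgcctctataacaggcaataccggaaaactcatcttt
Sequence 2: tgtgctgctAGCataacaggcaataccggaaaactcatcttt
Sequence 3: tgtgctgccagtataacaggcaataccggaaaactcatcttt
Sequence 4: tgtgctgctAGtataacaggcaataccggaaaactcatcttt
Sequence 5: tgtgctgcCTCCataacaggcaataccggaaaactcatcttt
Sequence 6: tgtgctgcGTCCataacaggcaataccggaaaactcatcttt

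Sequence 1, with no N base, had 16 UMIs in wt and was in 4 of 4 wt libraries and in 6 of the 12. Sequence 2 had 9 UMIs in wt, in 2 wt libraries and no other. Sequences 5 and 6 had 5 UMIs each, all in mutant libraries. With the D and N copies joined, this clonotype was public in Il15° mice and left the set.

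S2 (TRAV12N-3 TRAJ6) also had 10 nucleotide sequences, with 21, 1, 3 and 3 UMIs in wt, 0, 5, 5 and 4 in Il2° and 2, 0, 1 and 2 in Il15° mice. S3 (TRAV12N-3 TRAJ32) had 8 sequences, with 10, 12, 11 and 5 UMIs in wt, 3, 6, 2 and 0 in Il2° and 3, 5, 0 and 2 in Il15° mice. S4 (TRAV4D-3 TRAJ31) had 8 as well, and S3 and S4 are those with the highest wt shares among the 8 clonotypes with 8 sequences. S4 was counted with 5, 17, 8 and 7 UMIs in wt, 2, 0, 0 and 1 in Il2° and 1, 0, 0 and 4 in Il15° mice. The mean share of S2 was lower in each mutant by less than the SD of its wt share, and those of S3 and S4 by more. Their most frequent wt sequences held 0, 3 and 2 N bases.
S2, TRAV12N-3 TRAJ6: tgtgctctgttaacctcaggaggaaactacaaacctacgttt
S3, TRAV12N-3 TRAJ32: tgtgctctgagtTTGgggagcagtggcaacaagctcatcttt
S4, TRAV4D-3 TRAJ31: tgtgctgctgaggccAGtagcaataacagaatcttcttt

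Sequencing errors can add sequences to an abundant clonotype. A nucleotide sequence 1 base away from a sequence at least 10 times as abundant in the same library was found in 18 clonotypes of the set (6.23%) and in 127 of the rest (35.4%), and 0 clonotypes of either had only such sequences.

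N bases were slightly more numerous in the set when UMIs were weighed. The mean N region was 1.76, 1.79, 1.82 and 1.72 bases in the set and 1.46, 1.42, 1.44 and 1.45 in the rest (1.77 ± 0.0431 against 1.44 ± 0.0167, higher in 4 of 4 mice, exact 2-sided Mann-Whitney test, n = 4 libraries, p = 0.0286, adjusted p = 0.0476 over 5 features). This test too covers only the weighting of the same clonotypes in the same 4 mice, and the exact sign-flip test paired by mouse gave p = 0.125. With each clonotype counted once the difference was 0.154 bases. Within the classes of wt UMIs the set was not higher throughout, with 2.23 against 2.45 bases at 4 to 9 UMIs, 2.10 against 2.56 at 10 to 19, 1.84 against 1.79 at 20 to 39 and 1.26 against 1.64 at 40 or more. A wt sequence without any N base was found for 133 clonotypes (46.0%, Wilson interval 40.4% to 51.8%) of the set and for 193 (53.8%, 48.6% to 58.9%) of the rest.

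**Figure D5:**
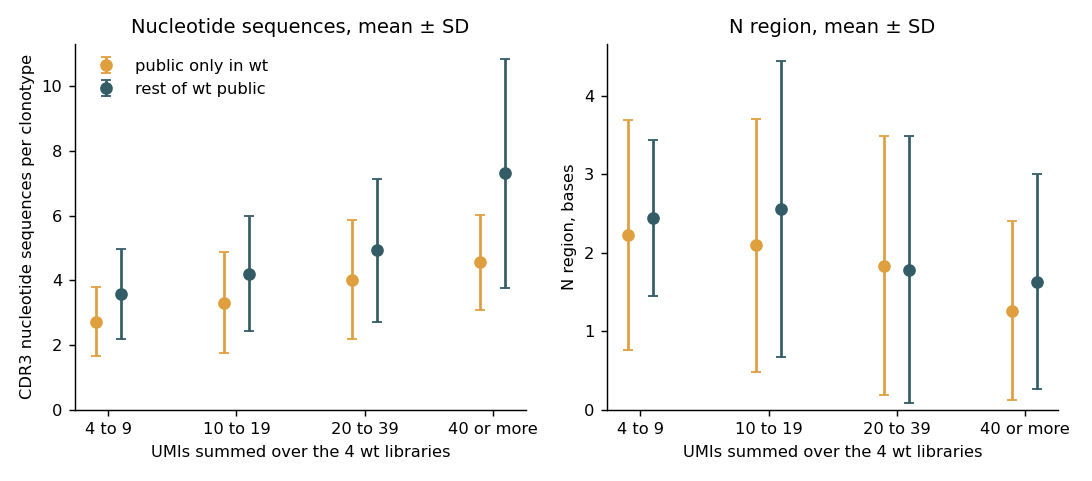
CDR3 nucleotide sequences per clonotype over the 12 libraries (left) and mean N bases (right) for the clonotypes public only in wt and for the rest of the wt public repertoire, by the UMIs summed over the 4 wt libraries. Points are means and bars SD over clonotypes. The clonotypes public only in wt have fewer nucleotide sequences in each class, while their N regions are longer in the class of 20 to 39 UMIs alone.

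The deposited CDR3 of 17 clonotypes of the set (5.88%) carried a mark of a frame shift or stop codon, against 13 (3.62%) of the rest. Sequences so marked took 4.37% of all UMIs. Such marks were found with TRAJ44, TRAJ47 and TRAJ7, which held 9, 4 and 4 clonotypes of the set and 4, 5 and 4 of the rest. Whether these chains are non-productive or the marks come from how the TRAJ end was assigned was not tested. The marked clonotypes were kept because the rule does not exclude them.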

How the data were processed

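TCRα libraries of 4 wt, 4 Il2° and 4 Il15° mice were analysed. The authors filtered reads by quality, built a consensus per UMI (at least 2 reads) with pRESTO, used MiXCR to assemble clones and VDJtools for the final format. The deposited count of a clone is its number of UMIs, not normalized, and the deposited fraction gives the same relative to the library. The submitters' processing notes list mm10. V and J ends within the CDR3 were used as deposited, and 287 rows with an end outside the CDR3 gave no N region.

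Counts were summed per TRAV, CDR3 amino acids and TRAJ. The clonotypes and the tests were chosen with earlier results of these data known. The text names 8 clonotypes by mean wt share (H1 to H8), the first 6 of those absent from all mutant libraries, the 4 with most nucleotide sequences (ties taken by wt share), the 3 with the highest wt share just inside and 2 per mutant just outside the rule, and members past the edgeR threshold, of which there were none. Of the clonotypes just outside, 1 per mutant is given. Replicates are separate mice. Exact 2-sided Mann-Whitney tests compared groups of 4 (smallest p 0.0286), and edgeR 4.0.16 (TMM, quasi-likelihood, Benjamini-Hochberg) compared single clonotypes. Values at 7625 UMIs are exact expectations. Positions come from GENCODE M21 by name (85 of 90 found). The code was tested on simulated data. Python 3.11.15, numpy 2.4.6, pandas 2.3.3, scipy 1.17.1, R 4.3.3 and DESeq2 1.42.0 were used. Alternatives covered the clonotype definition, depth, UMI minimum, filters, in-frame clonotypes, clonotypes counted once, each library left out and the replicate block. Leaving out 2 Il15° libraries, and reading the mutants against each other in left-out libraries, were chosen after seeing the data.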

Additional observations from a re-analysis of the deposited data

Results flagged for a closer look

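In 113 groups of 4 libraries, the highest or lowest library was compared with the other 3, and 8 stood apart. Chance gives about 1 in 20. H3 (TRAV4N-3 TRAJ15) had a share of 0.2486% in Il2° replicate 1, against at most 0.0325% in the other Il2° mice. H5 (TRAV4D-3 TRAJ39) had 0.144% in wt replicate 3 (others 0.0423% to 0.0577%) and 0.03228% in Il15° replicate 4 (others 0). H6 (TRAV4D-3 TRAJ18) had 0.1565% in wt replicate 3 (others 0.0346% to 0.0502%). S2 (TRAV12N-3 TRAJ6) was at 0 in Il15° replicate 2 (others 0.00930% to 0.0111%). The rule itself requires a 0 in at least 1 Il15° library, so the zeros of S2 and H5 in Il15° mice were favoured by it. The UMIs per detected clonotype of the set were 4.166 in wt replicate 4 (others 5.16 to 5.30). TRAV12 took 18.86% of the set in wt replicate 1 (others 15.03% to 15.3%), and TRAJ37 took 11.68% of the rest in wt replicate 3 (others 7.87% to 8.47%). The causes were not tested.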

How the results depend on the processing

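The number of clonotypes public only in wt moved with the definition of absence, the libraries used and depth. It was 17 with absence from all mutant libraries required, 484 without wt replicate 1, 500 without wt replicate 3, 138 expected at 7625 UMIs and 174 without Il15° replicates 2 and 3; over single libraries left out it ran from 243 to 500. The held-out share of wt against Il2° was −1.37 points with presence from 2 UMIs (exact p = 0.0286) and 0.0784 without wt replicate 4 (single libraries left out, −3.21 to 0.0784); that of wt against Il15° ran from −3.92 to −0.608, and as percent detected at 7625 UMIs it was −19.7 points. The UMI share of Il15° against Il2° turned to 0.287 points with presence from 2 UMIs, and without single libraries it ran from −0.711 to 0.757 (0.109 without wt replicate 2, and 0.757, 0.106 and 0.0823 without Il2° replicates 1, 2 and 4); the detected percentage ran from −14.6 to −0.671. Leaving out a mutant library also changes the rule.

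The CDR3 length difference was −0.0410 for in-frame clonotypes, −0.0163 against clonotypes present in all 12 libraries, −0.0375 with D and N copies joined and 0.106 with each clonotype counted once (single wt libraries left out, 0.00138 to 0.0287). Counted once, the N region differed by 0.154 bases, the TRAJ number by 2.65 and the hydropathy by 0.162, which was 0.156 (exact p = 0.0571) with copies joined. Without single wt libraries, where the exact test of 3 against 3 cannot go below p = 0.1, the differences were 0.314 to 0.352 bases, −1.20 to −1.02 sequences and 0.223 to 0.269 in hydropathy, and TRAV and TRAJ calls fell to 0 in each case. TRAJ22 was 0.223 and TRAJ9 −0.0404 against clonotypes present in all 12 libraries, TRAJ9 was −1.06 with copies joined and ran from −0.831 (without wt replicate 3) to 0.646 over single wt libraries left out.

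Replicate numbers belong to different mice. Over 12 same-numbered pairs of genotypes the correlation of deviations ran from −0.136 to 0.156, and 1 exceeded 0.1, so the numbers do not pair the samples. The replicate block gave 0 calls in edgeR; within wt, where it pairs both sets by mouse, it left 0.331 bases, −1.10 sequences and 0.246 in hydropathy at p = 0.125, the smallest possible (exact sign-flip test), and 0 TRAV and 0 TRAJ calls. The single-clonotype count was 3 with DESeq2, 3 with at least 1 UMI in 4 of 8 libraries, 2 with copies joined and 0 to 1 without single libraries, 0 without Il2° replicates 2, 3 or 4 or Il15° replicates 3 or 4. Depth limits the set itself, since 147 of its clonotypes had a single UMI in at least 1 wt library.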
